A study of Mus musculus with 8 samples.

Results

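The Sonic hedgehog signalling core was taken as 10 genes (Gli1, Gli2, Gli3, Ptch1, Smo, Hhip, Boc, Sufu, Gas1 and Cdon) among 22180 genes that had a probe set of their own on the arrays. Each gene was read from the probe set that names it alone; of the 2 that name Sufu, the one with the higher mean over the 8 arrays was used. The arrays were hybridised with RNA of medulloblastomas, tumours of the cerebellum, from mice at postnatal day 15. The 4 control tumours came from Math1-Cre/SmoM2 mice and the 4 Bcl2l1-deleted tumours from Math1-Cre/SmoM2/Bcl2l1 f/f mice, so all 8 tumours carried the activated Smoothened allele and the Cre driver, and only the latter group also lost Bcl2l1, the gene of the survival protein BCL-xL, in cells with Cre. Math1 (Atoh1) is active in granule neuron precursors, so other cells of the tumours are not expected to have recombined either allele. The comparison asks whether the pathway that drives these tumours was expressed at another level once Bcl2l1 was deleted, and the control values give its level in SmoM2 tumours.

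In cells with a primary cilium, the receptor Patched1 (Ptch1) holds the membrane protein Smoothened (Smo) inactive until a hedgehog ligand binds it, helped by the co-receptors Boc, Cdon and Gas1. Active Smoothened releases the zinc finger factors Gli2 and Gli3 from their inhibitor Sufu, and Gli proteins then switch on target genes, among them Gli1, Ptch1 and Hhip, which encode an activator and a pair of ligand-binding inhibitors. Sonic hedgehog from Purkinje cells drives division of granule neuron precursors in the normal cerebellum. SmoM2 is active without ligand, and thus acts downstream of the ligand, the co-receptors and Patched1.

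Promoter sequences from RefSeq (GRCm38.p6) were at hand for 8 of the 10 members, not for Gli1 and Boc, each running from 250 bases before a transcript start to 50 after it. Their GC content ran from 44.7% (Cdon) to 76.3% (Ptch1), with a median of 67.5% against 52.7% over all 32851 promoters of the table. The Gli binding consensus, searched as GACCACCCA on both strands, was in none of the 8 and in 0.253% of all promoters. Its inner letters ACCACCC, which overlap the longer motif by construction, were in 1 of the 8, that of Gli2, and in 4.61% of all. The promoter of Ptch1 (chr13:63565686-63565985, minus strand, 47 CpG) is shown because Ptch1 is the customary readout of the pathway, and that of Gli2 (chr1:119053570-119053869, minus strand) because it holds the match, in capitals, on the opposite strand from 205 to 199 bases before the start. A match is a description of letters, and binding was not measured.

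Ptch1: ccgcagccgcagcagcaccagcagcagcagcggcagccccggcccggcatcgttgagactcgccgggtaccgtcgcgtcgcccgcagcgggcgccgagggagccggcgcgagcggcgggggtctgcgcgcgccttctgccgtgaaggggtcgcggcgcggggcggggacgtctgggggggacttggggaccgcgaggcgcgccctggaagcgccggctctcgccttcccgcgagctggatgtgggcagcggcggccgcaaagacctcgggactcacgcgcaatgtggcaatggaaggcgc

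Gli2: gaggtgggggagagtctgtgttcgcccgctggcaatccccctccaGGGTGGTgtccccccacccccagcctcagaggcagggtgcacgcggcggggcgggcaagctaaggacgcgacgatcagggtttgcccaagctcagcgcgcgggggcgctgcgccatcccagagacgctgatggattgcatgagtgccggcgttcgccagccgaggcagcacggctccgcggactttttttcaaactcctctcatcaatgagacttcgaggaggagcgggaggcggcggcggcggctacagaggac

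The deposited values are log2 RMA values (background-corrected, normalised and summarised probe signals), and the 4 arrays per group limit the precision. Bcl2l1 itself was lower by 1.36 on the fitted log2 scale in the libraries labelled deleted (log2 change -1.36, SE 0.16, limma adjusted p = 0.00509), without overlap of the groups and in all 21 alternatives. Control replicate 2 stood apart: its correlation with the other 7 arrays over all probe sets was 0.881 to 0.925, where all other pairs reached at least 0.956. The median of 1394 odorant and vomeronasal receptor genes, which mostly report background in brain, was 3.60 there and 2.79 to 3.09 elsewhere. That array held the lowest value of all 8 for 54.6% of tested genes and for 5 of the 10 members. Each member's change is therefore also given without it.

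No member of the core passed the test between Bcl2l1-deleted and control tumours, the pathway's transcribed readouts Gli1, Ptch1 and Hhip included. All 10 passed the filter on dim genes (mean above 4.38, the 30th percentile of gene means) and were tested by limma among 15526 genes. The count was 0 at an adjusted p of 0.05, where 6.52% of all tested genes passed, and 0 at an unadjusted p of 0.05, where 30.5% did. The groups overlapped for all 10, while 23.4% of tested genes did not overlap. Without control replicate 2 the count was again 0 on both thresholds, where 13.5% of tested genes passed the adjusted and 32.7% the unadjusted one. The background itself depended on single arrays, since 1013 genes passed with all 8 and between 20 (without Bcl2l1-deleted replicate 1) and 2100 (without control replicate 2) with 1 left out. The lowest adjusted p of a member over 209 values in 21 alternative settings was 0.0816. A p above the threshold does not show equal levels, so the intervals below give the sizes that remained possible.

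**Figure D1:**
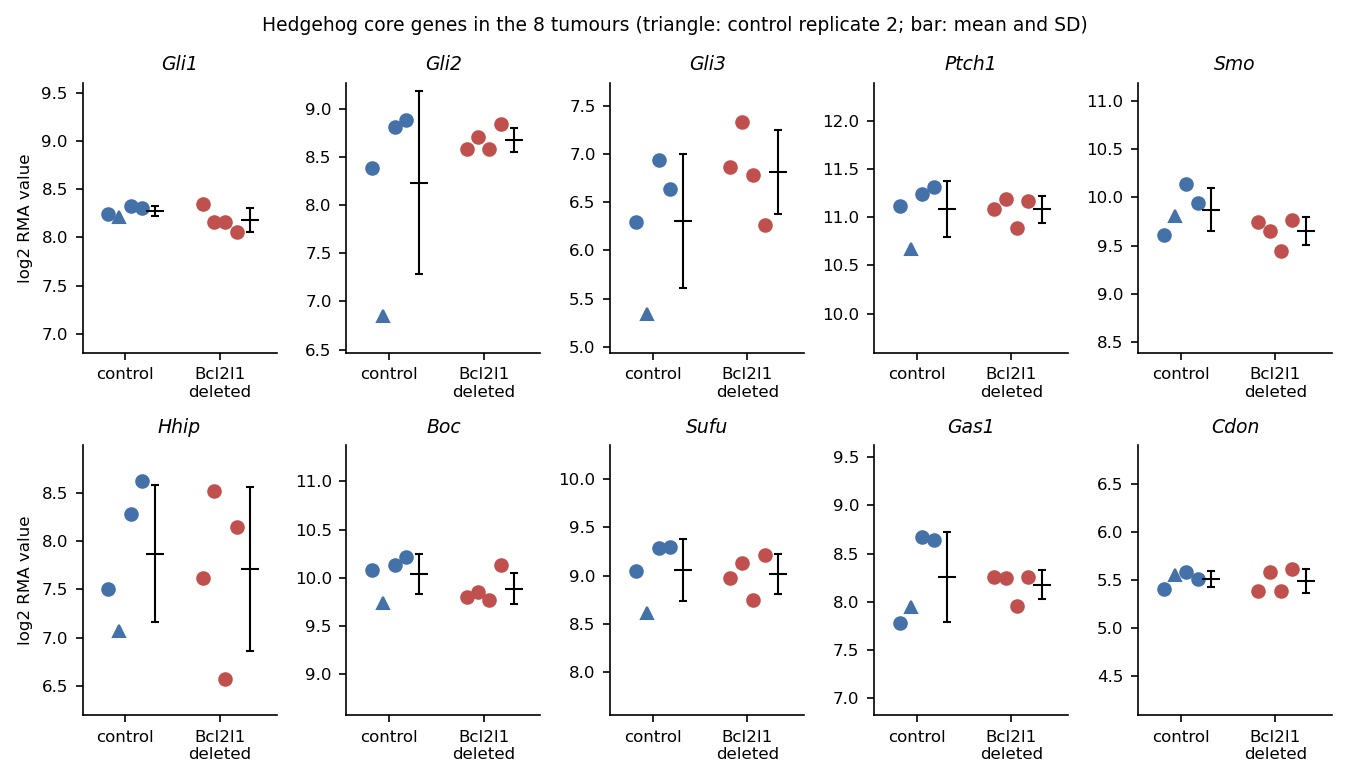
Log2 RMA value of each of the 10 genes on each array, in panels that all span the same range of log2 units, with control tumours in blue, Bcl2l1-deleted tumours in red, control replicate 2 as a triangle, and black bars for the mean and SD of each group (n = 4). The groups overlap in every panel; the low control points of Gli2 (6.85) and Gli3 (5.34) are control replicate 2.

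Gli1, the Gli factor whose transcription depends on the pathway and its most used readout, stood at 8.35, 8.16, 8.16 and 8.06 in Bcl2l1-deleted replicates 1 to 4 and at 8.24, 8.21, 8.33 and 8.31 in control replicates 1 to 4. The deleted tumours lay lower except replicate 1, which was the highest of all 8, so the groups overlapped. The level in SmoM2 control tumours was 8.27 ± 0.05 and that in deleted tumours 8.18 ± 0.12 (SD, n = 4 each). The fitted log2 change, Bcl2l1-deleted minus control as throughout, was -0.09 with a 95% interval from -0.39 to 0.21 (limma adjusted p = 0.652; exact permutation test, two-sided, p = 0.200). In that interval the largest change in either direction was 1.31-fold. Without control replicate 2 the change was -0.11 (interval -0.36 to 0.13, adjusted p = 0.510).

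Ptch1, target and inhibitor at once, read 11.09, 11.19, 10.89 and 11.17 in the deleted tumours and 11.11, 10.67, 11.24 and 11.32 in the controls. Both lowest values, in Bcl2l1-deleted replicate 3 and control replicate 2, came from different groups, and the means were 11.08 ± 0.14 and 11.09 ± 0.29 (SD, n = 4 each). Its change of -0.00 had an interval from -0.38 to 0.38, at most 1.31-fold (adjusted p = 0.996), and became -0.14 (interval -0.41 to 0.13, adjusted p = 0.442) without control replicate 2. Relative to the median gene Ptch1 was at -0.17, and at -0.11 without Bcl2l1-deleted replicate 3.

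Hhip, a decoy that binds hedgehog ligands at the cell surface, had the widest pooled SD within groups of the 10 members (0.78). It read 7.62, 8.52, 6.57 and 8.14 in the deleted tumours and 7.51, 7.07, 8.28 and 8.62 in the controls. Highest and lowest values occurred in both groups, with means of 7.71 ± 0.85 and 7.87 ± 0.71 (SD, n = 4 each). The change of -0.16 (interval -1.11 to 0.79, adjusted p = 0.819) allowed up to 2.15-fold, so a change of moderate size in Hhip was not detectable with these arrays. Without control replicate 2 the change was -0.43 (interval -1.39 to 0.54, adjusted p = 0.525). Relative to the median gene, Hhip was at -0.33, and with 1 array left out it ran from -0.59 (without Bcl2l1-deleted replicate 2) to 0.05 (without Bcl2l1-deleted replicate 3). The latter array had the lowest Hhip value and also the highest Purkinje marker mean (9.19, against 5.18 to 8.75 elsewhere). It also had the highest means of astrocytes and Bergmann glia (9.51) and of microglia (8.25), among 12 marker lists. Control replicate 2, next lowest in Hhip (7.07), had a Purkinje mean of 7.89. Control replicate 4, highest in Hhip (8.62), had 8.15. The part of Purkinje cells or glia in the Hhip value was not tested.

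Smo itself read 9.74, 9.65, 9.44 and 9.76 in the deleted tumours and 9.60, 9.81, 10.13 and 9.95 in the controls. All 4 deleted tumours lay below the control mean, though control replicate 1 was lower than 3 of them. The means were 9.65 ± 0.15 and 9.87 ± 0.22 (SD, n = 4 each), a change of -0.22 (interval -0.58 to 0.13, adjusted p = 0.350; exact permutation test, two-sided, p = 0.171, the lowest of the 10 members, where 0.0286 is the smallest possible). Without control replicate 2 it was -0.25 (interval -0.58 to 0.09, adjusted p = 0.280). Whether the probe set reads RNA of the SmoM2 allele, of the endogenous gene or of both was not analysed here.

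Sufu, which holds Gli proteins in check, read 8.97, 9.13, 8.74 and 9.21 in the deleted tumours and 9.05, 8.61, 9.28 and 9.30 in the controls. Low and high values were again mixed between the groups, and the change was -0.04 (interval -0.46 to 0.37, adjusted p = 0.887). Without control replicate 2 it was -0.19 (interval -0.51 to 0.12, adjusted p = 0.364). Relative to the median gene Sufu was at -0.22, and at -0.13 without Bcl2l1-deleted replicate 3. The second Sufu probe set, dimmer at a mean of 5.57, differed by -0.05 between the group means.

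Gli2, the main activator that carries the signal from Smoothened, read 8.58, 8.71, 8.58 and 8.84 in the deleted tumours and 8.39, 6.85, 8.81 and 8.88 in the controls. Control replicate 2 was the lowest of all 8, and the deleted tumours (8.58 to 8.84) lay within the range of the other 3 controls (8.39 to 8.88). Its change was 0.44 (SE 0.38, interval -0.39 to 1.27, adjusted p = 0.425) with that array and -0.02 (SE 0.15, interval -0.34 to 0.31, adjusted p = 0.949) without it. Gli3, which serves mostly as a repressor, read 6.87, 7.33, 6.78 and 6.26 in the deleted tumours and 6.29, 5.34, 6.94 and 6.64 in the controls. It too was lowest on control replicate 2, where it lay below the 95th percentile of the receptor genes (5.88), and Bcl2l1-deleted replicate 4 was lower than every control but that one. The Gli3 change of 0.51 (interval -0.22 to 1.24, adjusted p = 0.303) fell to 0.19 (interval -0.35 to 0.73, adjusted p = 0.621) without control replicate 2. With 1 array left out, the change relative to the median gene ran from -0.10 (without control replicate 2) to 0.46 (without control replicate 4) for Gli2 and from 0.11 (without control replicate 2) to 0.52 (without Bcl2l1-deleted replicate 4) for Gli3.

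Among the co-receptors, Boc read 9.80, 9.85, 9.77 and 10.13 in the deleted tumours and 10.08, 9.74, 10.14 and 10.21 in the controls. Deleted replicates 1 to 3 lay below every control but replicate 2, and deleted replicate 4 lay among the controls. Its change was -0.15 (interval -0.51 to 0.20, adjusted p = 0.518), and -0.25 (interval -0.53 to 0.02, adjusted p = 0.178) without control replicate 2. Gas1, a co-receptor anchored in the membrane by a lipid, read 8.26, 8.24, 7.95 and 8.26 in the deleted tumours and 7.77, 7.95, 8.67 and 8.64 in the controls. Control replicates 3 and 4 lay above every deleted tumour, control replicate 1 lay below every one, and control replicate 2 was level with the lowest of them. The change was -0.08 (interval -0.57 to 0.40, adjusted p = 0.814), and -0.19 (interval -0.67 to 0.29, adjusted p = 0.578) without control replicate 2. Relative to the median gene Gas1 was at -0.26, at -0.45 without control replicate 1, and at -0.15 without control replicate 3 or 4. Cdon, the relative of Boc, lay between 5.38 and 5.62 on all 8 arrays (change -0.02, interval -0.32 to 0.28, adjusted p = 0.927; -0.01, interval -0.26 to 0.25, adjusted p = 0.975 without control replicate 2). Its signal was close to background, below the 95th percentile of the receptor genes on control replicate 2 (5.56 against 5.88), and RMA compresses differences there.

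**Figure D2:**
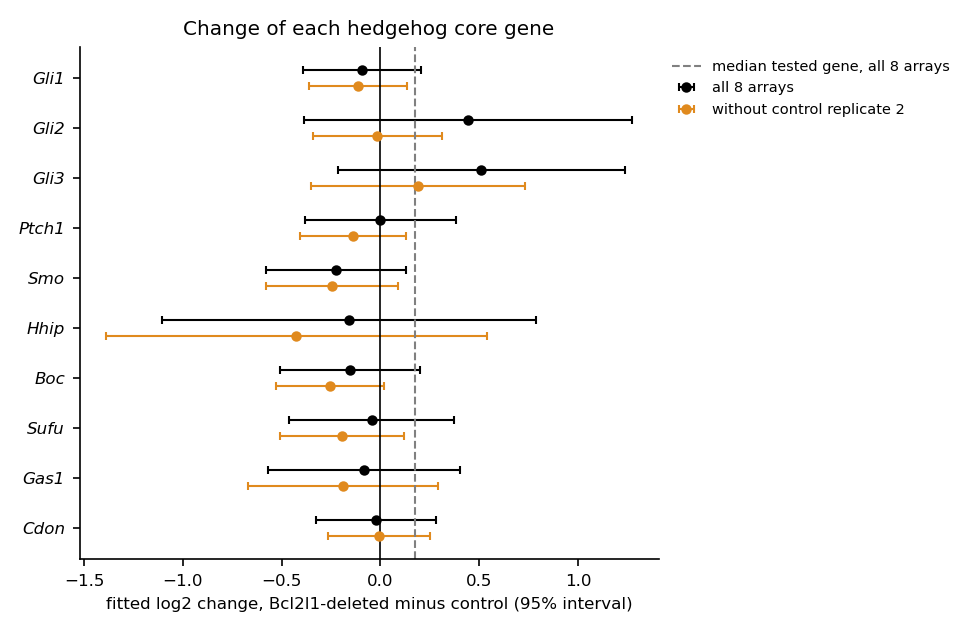
Fitted log2 change of each gene, Bcl2l1-deleted minus control, with its 95% interval from all 8 arrays (black) and without control replicate 2 (orange); the dashed line is the median change of all tested genes (0.17). All 10 black intervals include 0, and Gli2 moves from 0.44 to -0.02 without that array.

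On the deposited scale the median gene tested lay 0.17 above the controls in deleted tumours, a shift as large as many changes of the core. In the fit itself 8 of the 10 members were lower, beside 32.6% of all tested genes. Relative to that median, 8 of the 10 members were lower and Gli2 (0.27) and Gli3 (0.34) higher. The 8 lay between -0.40 (Smo) and -0.17 (Ptch1), with Gli1 at -0.26, and 9 of 10 were lower relative to the median without control replicate 2, where Gli2 stood at -0.10 and Gli3 at 0.11. The median of the 10 relative changes was -0.24, beside 0 over all tested genes by construction. Their median absolute relative change was 0.27 against 0.26 over all tested genes, and their median SD within groups 0.25 against 0.28. With each array centred on its tested genes, the changes of Gli1 (-0.35), Smo (-0.48) and Boc (-0.41) had intervals below 0, and 3 of 10 members had an unadjusted p under 0.05, as did 28.5% of all genes on that scale. None passed adjustment (adjusted p = 0.150, 0.116 and 0.0816). Which genes were called, and in which direction, differed with the scaling as well. As deposited, 1013 genes were called, 765 higher and 248 lower. Arrays centred on all probe sets gave 1508 (1337 higher, 171 lower), arrays centred on the tested genes 1089 (390 and 699), and the receptor median in the model 677 (273 and 404).

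The rest of the pathway was counted in 5 further lists, of which 66 of 72 genes had a probe set of their own and 63 were tested. Of these 63, 1 rose and none fell (limma), 9 had an unadjusted p under 0.05, and 6 had groups that did not overlap, with a median relative change of 0.01. Over all tested genes the shares were 6.52%, 30.5% and 23.4%. The ligand gene Shh (means 3.93 ± 0.20 in deleted and 4.06 ± 0.29 in control tumours, SD, n = 4 each), its relative Dhh and the uptake receptor gene Lrp2 fell under the dim filter; these 3 were singled out after their values were seen.

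Eya1, a transcription cofactor gene that is high in hedgehog-driven medulloblastoma, rose by 0.60 relative to the median gene (SE 0.19, limma adjusted p = 0.0404). It read 8.53, 8.69, 8.57 and 8.15 in the deleted tumours and 7.90, 7.31, 7.97 and 7.68 in the controls. Every deleted tumour lay above every control. The call was kept in 10 of 21 alternatives, over which the adjusted p ran from 0.0109 to 0.131. It was lost without any 1 of the 4 deleted arrays (0.126, 0.131, 0.0876 and 0.0580 for replicates 1 to 4), without control replicate 3 or 4 (0.0534 and 0.0976), with no filter on dim genes (0.0576), centred on the tested genes (0.0561), with the receptor median (0.128) or the Xist level (0.0875) in the model, and with the replicate number as a block (0.0676).

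Other targets of the pathway did not pass. Atoh1, the granule precursor factor that Gli proteins sustain, stood at 0.29 relative to the median gene (adjusted p = 0.108), with 11.63 ± 0.18 in deleted and 11.17 ± 0.25 in control tumours (SD, n = 4 each). Mycn, which drives precursor division, stood at 0.07 (adjusted p = 0.252) and Hsd11b2, which inactivates glucocorticoids, at 0.26 (adjusted p = 0.253). The 14 tested targets had a median relative change of 0.07.

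Ligand and release genes had a median relative change of -0.15 over 6 tested genes. Disp1, which exports the lipid-bearing ligand, stood at 0.15, Scube2, a carrier of released ligand, at -0.48, Hhat, which adds palmitate to it, at -0.31 and Scube3 at -0.01 (adjusted p = 0.226, 0.353, 0.603 and 0.766). On the receptor side the median was 0.25 over 6 genes. Mosmo, a modulator of Smoothened level, stood at 0.39 and the glypican genes Gpc6, Gpc4 and Gpc3 at 0.24, 0.25 and 0.32 (adjusted p = 0.132, 0.151, 0.200 and 0.214).

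Cytoplasmic regulators had a median of -0.14 over 20 tested genes. Tulp3 and Rab23, which restrain the pathway through trafficking at the cilium, stood at 0.20 and 0.32, Arrb2 at -0.38 and the ubiquitin ligase scaffold gene Cul3 at 0.09 (adjusted p = 0.115, 0.126, 0.320 and 0.348). The 17 tested genes of the primary cilium had a median of 0.11. Ofd1, Wdr35, Ift88 and Ift172, all needed to build or run cilia, stood at 0.49, 0.53, 0.34 and 0.29 (adjusted p = 0.126, 0.128, 0.155 and 0.202). All 4 were lowest on control replicate 2, as Wdr35 at 5.84 against 6.94 to 7.20 on the other controls. Single alternatives called Tulp3 (array weights, adjusted p = 0.0468), Ofd1 (array weights, 0.0370, and without control replicate 1, 0.0370) and, towards lower values, Stk36 (centred on the tested genes, 0.0488), a kinase gene named here after its values were seen.

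**Figure D3:**
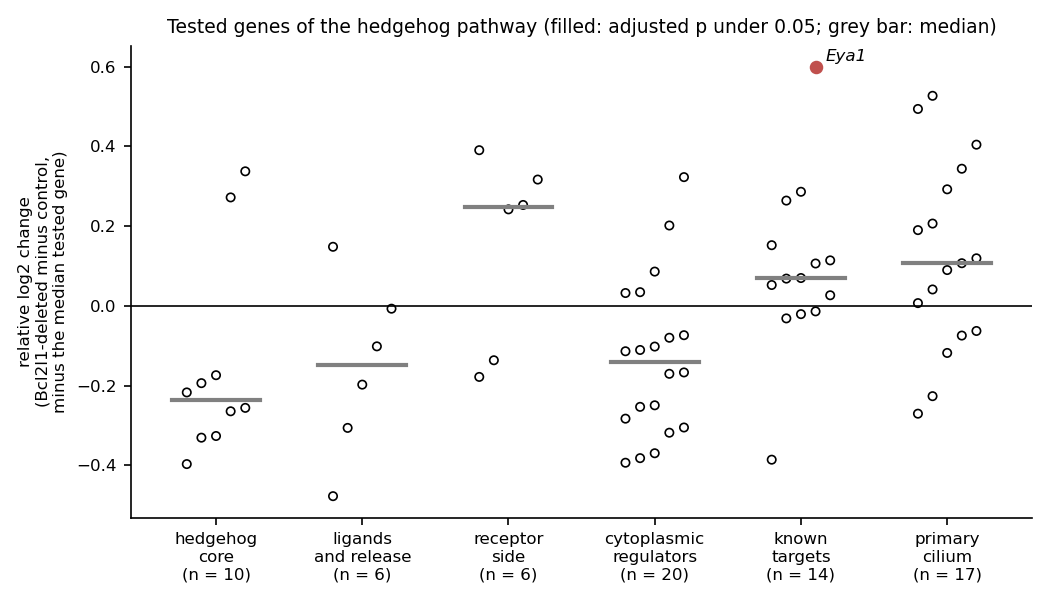
Relative log2 change of each tested gene in the core and in the 5 other pathway lists; filled points passed an adjusted p of 0.05 and grey bars are list medians. Eya1 is the 1 filled point, and the core median lies at -0.24.

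Several markers of cell types passed the test between the groups. Beside the counts below, 6.52% of all 15526 tested genes passed, 765 of them higher and 248 lower. Beside the summed signals below, the summed linear signal of all tested genes did not overlap between the groups. It was 3935300 to 3974990 in deleted and 2896460 to 3857330 in control tumours. Granule precursor markers, which define these tumours, were measured for 13 of 14 listed genes, 12 above the dim filter; 1 fell (Barhl2, a precursor homeobox gene, -1.28 relative to the median gene, SE 0.21, adjusted p = 0.0214) and none rose, and their summed linear signal was 11704 to 13225 in deleted and 11297 to 14935 in control tumours. Markers of granule neuron differentiation fell in 9 of 18, with a summed signal of 4512 to 7057 against 7254 to 12264. Cntn2, an adhesion molecule of young granule neurons, changed by -1.37 relative to the median gene (SE 0.15, adjusted p = 0.00814). Its call was kept in all 21 alternatives. Markers of astrocytes and Bergmann glia, cells that also respond to hedgehog, rose in 3 of 16, at 15046 to 19887 against 9879 to 16757. Microglia markers rose in 7 of 14, at 4737 to 5513 against 1871 to 3750. Among them was Aif1 (1.12 relative to the median gene, SE 0.21, adjusted p = 0.0140), which lost its call without Bcl2l1-deleted replicate 1 or 2. Proliferation markers rose in 1 of 11, at 11209 to 13263 against 7975 to 10869. This was Aurkb, a mitotic kinase (0.45 relative to the median gene, SE 0.14, adjusted p = 0.0354, called in 10 of 21 alternatives). Endothelial markers rose in 5 of 10, fibroblast markers in 4 of 9, oligodendrocyte precursor markers in 3 of 7 and mural markers in 2 of 8. Oligodendrocyte markers fell in 2 of 10 and choroid plexus and ependyma markers in 2 of 7, and none of 5 Purkinje markers passed (none at an unadjusted p of 0.05 either). These counts rested on single arrays, and so did the count over all tested genes. Of 15526 tested genes, 20 passed without Bcl2l1-deleted replicate 1, 47 without replicate 2, 453 without replicate 3 and 223 without replicate 4. With control replicates 1 to 4 left out in turn, these totals were 1999, 2100, 461 and 157. Without Bcl2l1-deleted replicate 1 or 2, 1 differentiation marker and 0 microglia, 0 astrocyte, 0 endothelial, 0 mural, 0 oligodendrocyte and 0 proliferation markers passed, and without control replicate 4 these were 1, 2, 0, 1, 0, 0 and 0. Without Bcl2l1-deleted replicate 4 they were 3, 3, 0, 2, 0, 0 and 0, without replicate 3 they were 11, 2, 0, 2, 0, 4 and 0, and without control replicate 3 they were 10, 6, 0, 3, 0, 2 and 0. Without control replicate 2 they were 12, 8, 4, 5, 3, 4 and 3, and without control replicate 1 they were 8, 12, 9, 6, 2, 2 and 2, beside 1 oligodendrocyte marker towards higher values. Granule precursor calls, all lower, were 3 without control replicate 2, 1 without Bcl2l1-deleted replicate 3 or control replicate 1 or 3, and 0 otherwise. Barhl2 lost its call without Bcl2l1-deleted replicate 1, 2 or 4 or control replicate 4, and Aurkb without any deleted array or control replicate 3 or 4. Fibroblast calls ran from 1 to 5, oligodendrocyte precursor calls from 0 to 3 and choroid plexus calls from 1 to 2 with 1 array left out. The part of these cells in the levels of the core genes was not tested, and in bulk tissue fewer cells of a type and less RNA per cell cannot be told apart.

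**Figure D4:**
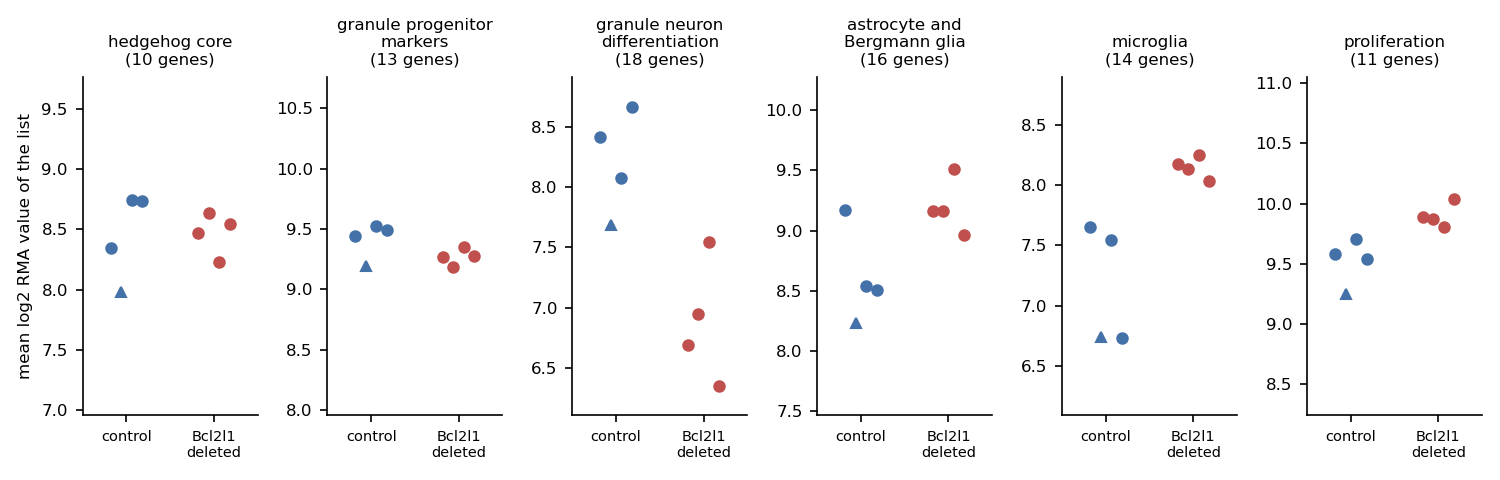
Mean log2 RMA value over the measured genes of the core and of 5 marker lists on each array, in panels of equal span (blue, control; red, Bcl2l1-deleted; triangle, control replicate 2). The core means run from 8.23 to 8.64 in deleted and from 7.98 to 8.74 in control tumours and overlap. The granule progenitor means and the astrocyte and Bergmann glia means overlap too. No overlap is seen for microglia (8.03 to 8.25 against 6.74 to 7.65), granule neuron differentiation (6.36 to 7.55 against 7.69 to 8.67) or proliferation (9.80 to 10.04 against 9.25 to 9.70). Of single tested genes, 23.4% did not overlap. The mean over all 15526 tested genes did not overlap either, at 6.90 to 6.95 in deleted and 6.56 to 6.89 in control tumours.

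Across the 8 arrays, the genes whose values centred on their own mean lay nearest to those of Gli1 were Cacng7, Znhit3, Lman1l, Map4k4 and Psmb5, with root mean square differences of 0.07 to 0.08 log2 units. Those nearest to Ptch1 were Slc39a9, Med24, Rexo1, Arhgap35 and Dennd5a (0.05 to 0.06). None of these 10 passed the test between the groups, which their choice by likeness to Gli1 or Ptch1 made all but certain. Genes with Gm-number or Rik symbols, and microRNA, small nucleolar or Cajal body RNA, odorant and vomeronasal receptor genes, were left out of this search. Looked up after the values were seen, the gene nearest to Sufu among the tested genes searched was Ptch1, at 0.06. These likenesses rest on 8 arrays that all genes share, and so on whatever sets single arrays apart.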

How the data were processed

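RNA from 8 tumours went through an Affymetrix kit for whole transcripts, according to the labels' protocols. The deposited log2 values are RMA values from Partek, per the labels; RMA compresses differences of dim genes. The deposited arrays are not on equal distributions, with medians over all probe sets from 4.77 to 5.17 and interquartile ranges over named genes of 2.40 on control replicate 2 and 3.29 to 3.66 on the others. Version, options and genome build: not given in the sources used here. Groups follow sample titles and genotypes, since the field on Bcl2l1 status calls even the controls deleted. The replicates are separate animals by the design text, without batch labels. Replicate numbers did not pair the arrays (correlation of deviations from the group means -0.13 to 0.05).

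Platform annotation gave 23521 of 41345 probe sets 1 symbol, 1814 several and 16010 none; updating through Entrez identifiers (RefSeq, GRCm38.p6) matched 23328 and changed 0. The probe set with the highest mean stood for a gene, and genes at or below the 30th percentile were left out. The model was run in limma 3.58.1 under R 4.3.3 (lmFit, eBayes, no covariate, two-sided, Benjamini-Hochberg over 15526 genes); every adjusted p is from this fit unless a setting is named. A relative change is the fitted change minus that of the median gene, while its SE and p are those of the fitted change. Exact permutation used the 70 regroupings. Simulated arrays in the layout of this comparison, with 15526 genes, gave 96% of 100 genes changed by 2 log2 units, 53% of 100 changed by 1, and 7 false calls. Their noise was drawn for each gene apart, without any effect shared by a whole array. These figures therefore do not cover an array set apart as control replicate 2 is.

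Named were Bcl2l1, all members, the 4 genes of smallest p in each other pathway list, up to 2 of each marker list, and the 5 nearest profiles to Gli1 and to Ptch1. Members and lists were chosen with earlier results of these data known.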

Additional observations from a re-analysis of the deposited data

Results flagged for a closer look

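Sets of 4 values were checked for each named gene in each group, the nearest profiles left out. In 4 of 110 sets, 1 array lay far from the other 3 by Dixon's criterion at 95%, which chance gives in about 1 of 20. Among the core genes this was Gas1, which read 7.95 on Bcl2l1-deleted replicate 3 while the other deleted arrays lay between 8.24 and 8.26. The others were Cul3 at 9.08 and Rgs5 at 7.77 on control replicate 2 (9.76 to 9.85 and 8.96 to 9.10 on the other controls), and Mal at 8.95 on control replicate 1 (7.76 to 7.92).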

How the results depend on the processing

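The count of core genes called was 0 in all 21 alternatives, 8 of which leave out 1 array, and 204 of the 209 relative changes computed kept their sign; Cdon was not tested with the filter at the 50th percentile. The 5 that turned concerned Gli2, Gli3 and Hhip, none of them called in any setting, and the receptor median as a covariate moved Gli2 to -0.37 and Gli3 to -0.10. The count of all genes called moved from 1013 to 548 with no filter on dim genes, 3494 with array weights, 508 with the replicate number as a block, 200 with the Xist level as a covariate, and 20 to 2100 with 1 array left out. The count of other pathway genes called moved from 1 to 0 with no filter on dim genes, with the replicate block, with the receptor median or with the Xist level as a covariate, to 3 with array weights, and to between 0 and 2 with 1 array left out. The replicate block changed no call of a core gene. For the other 45 named genes, nearest profiles apart, 925 of 940 values kept their sign, 102 lost a call and 12 gained one. The causes were not tested. With 4 arrays per group, the interval was narrowest for Gli1 and widest for Hhip among the core genes.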

Other observations

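Pdlim3, a gene of the actin cytoskeleton that is high in hedgehog-driven medulloblastoma, varied far more between tumours than any core gene. It read 8.11, 9.50, 8.14 and 11.32 in Bcl2l1-deleted replicates 1 to 4 and 11.01, 8.34, 8.97 and 9.60 in control replicates 1 to 4. Highest and lowest values occurred in both groups, whose SDs were 1.51 and 1.14 (n = 4 each), where the median tested gene had 0.28. The change relative to the median gene was -0.39 (SE 0.72, limma adjusted p = 0.854). Among the core genes, Hhip had the widest pooled spread, with SDs of 0.85 and 0.71. Pdlim3 was singled out after its values were seen.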
